A study of Mus musculus with 6 samples.

Results

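The 8 genes described here encode proteins of glucose uptake, glycolysis and fructose breakdown in liver, and they were chosen by name from the 54532 gene identifiers of the tables. They are the sugar transporter gene Slc2a2, the regulator gene Gckr, the phosphofructokinase gene Pfkl and its regulator Pfkfb1, the fructokinase gene Khk, the pyruvate kinase genes Pklr and Pkm, and the lactate dehydrogenase gene Ldha. All 8 were found by symbol, and all 8 passed the filter for testing, a mean of at least 0.5 FPKM over the 6 libraries, as did 11672 genes in all. FPKM are fragment counts scaled by exon length and by a total set for each library, so levels may be compared between genes as well as between libraries.

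The libraries came from mouse liver: 3 are labelled as a liver-specific knockout of Arid2 (LKO) and 3 as wild type (WT), and the sample titles name no treatment. ARID2 is a subunit of the PBAF chromatin remodelling complex, and the title of the series links it to fatty liver and to the kinase JAK2. The sources used here give no strain, age, sex, driver of the deletion or feeding state. They also do not say that each library came from its own animal, and the p-values therefore cover only the spread among these libraries, which may be technical.

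Hepatocytes take up glucose and fructose through GLUT2, the product of Slc2a2. The product of Gckr restrains the entry of glucose into the pathway, while ketohexokinase phosphorylates fructose and so passes it into the pathway below the phosphofructokinase step. Liver uses its own isozymes of phosphofructokinase and pyruvate kinase, and several of these genes are induced by carbohydrate feeding through the transcription factor ChREBP (Mlxipl) and by insulin.

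The libraries held 13947791 to 18159285 reads, as recovered from the steps of the FPKM values. The ends of the range were spread unevenly over the libraries: LKO replicate 1 or WT replicate 1 was the lowest library for 46.4% of all tested genes and the highest for 39.7%. LKO replicate 3 was lowest for 20.1% and highest for 25.9%, the largest share of highest values of any library. Mitochondrially encoded genes held 4.76% to 27.6% of the reads in LKO and 10.2% to 20.7% in WT, with the highest share of each group in its replicate 1. Arid2 itself did not separate the groups, at 2.55, 1.33 and 2.04 FPKM across LKO replicates 1 to 3 and 2.65, 1.74 and 1.79 FPKM across WT replicates 1 to 3. These are sums over the whole gene and do not view a deleted exon, so each direction below is between libraries labelled LKO and libraries labelled WT. Hepatocyte markers were abundant in every library (summed level 48047 to 66896 FPKM in LKO and 44609 to 58567 FPKM in WT over 10 genes, none at 0).

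None of the 8 genes passed the threshold between the genotypes (limma-trend, adjusted p under 0.05), where 0.0428% of all tested genes did (0.00857% higher in LKO and 0.0343% lower). Ldha, which makes the enzyme that interconverts pyruvate and lactate, averaged 2.16 times the WT level in libraries labelled LKO, and Pfkfb1 0.571 times, the largest differences of mean FPKM in each direction. The other 6 lay between 0.664 and 1.22 times. On the log2(FPKM + 1) scale 3 members lay above 0 and 5 below, with a median of -0.04, beside 54.1% above 0 and a median of 0.03 for all tested genes. An unadjusted limma p under 0.05 was found for 1 member, Pfkfb1, where 9.22% of all tested genes had one (4.28% higher in LKO and 4.93% lower). The groups did not overlap for the same 1 member, where that held for 15.4% of all tested genes, 7.42% with LKO below WT.

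**Figure D1:**
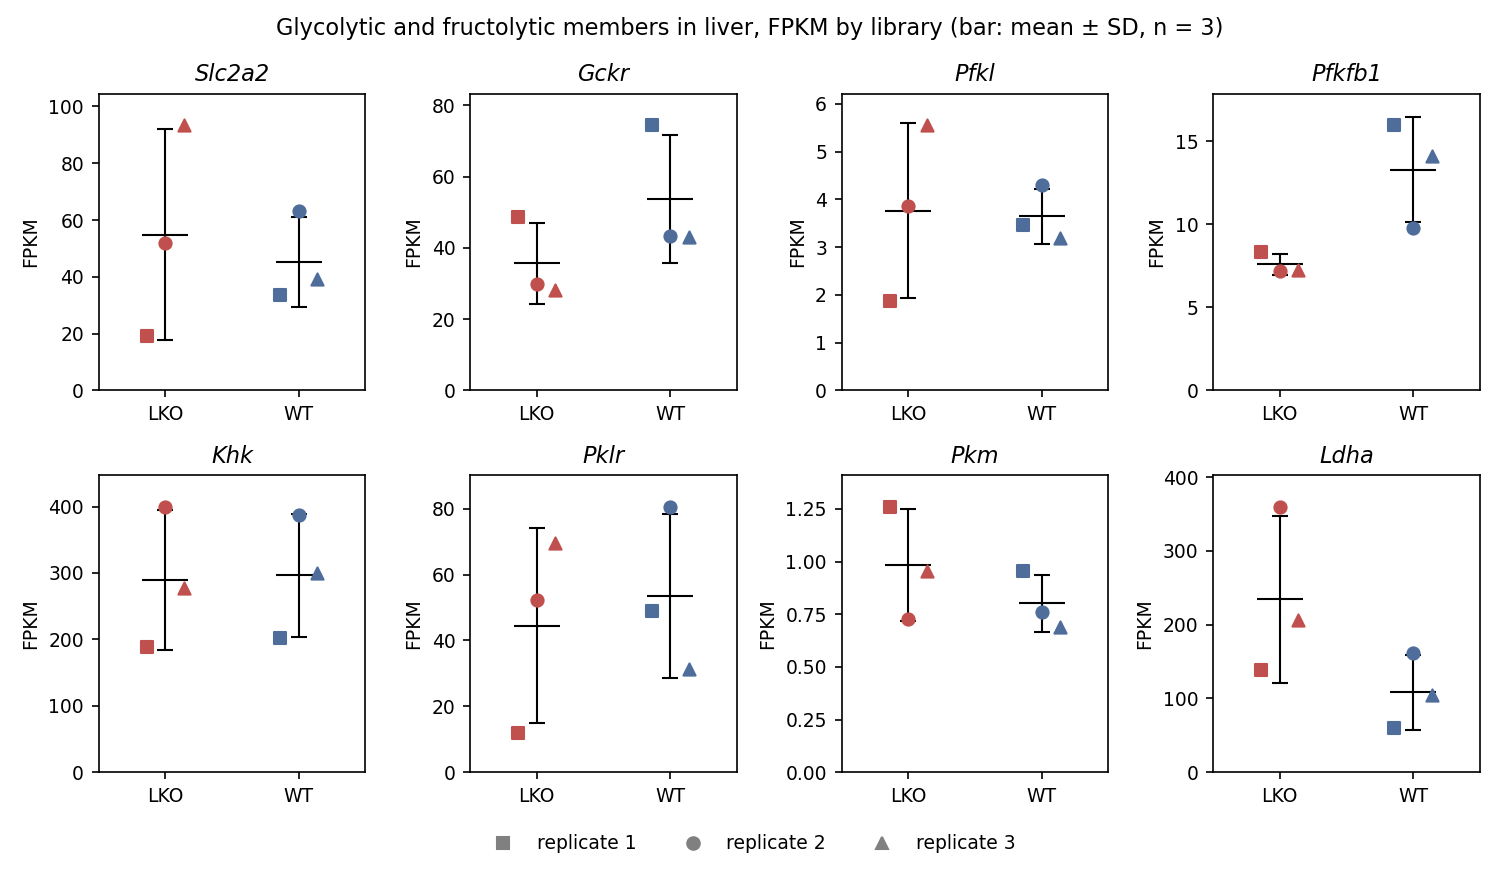
FPKM of each of the 8 genes (vertical axes, linear from 0) in the 3 libraries labelled LKO and the 3 labelled WT, with marker shape giving the replicate number and the bar the mean ± SD. The groups overlap in every panel but that of Pfkfb1, and LKO replicate 1 is the lowest library for Slc2a2, Pfkl, Khk and Pklr.

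The members also varied between libraries of one genotype. Pklr spanned a 6.77-fold range over the 6 libraries, Ldha 5.98-fold, Slc2a2 4.88-fold and Pkm, the narrowest, 1.82-fold. LKO replicate 1 was the lowest of the 6 libraries for 4 of the 8 genes, while it was lowest for 24.5% of all tested genes. The order of the genes by level was the same in all libraries only at its ends, while Ldha, Gckr, Slc2a2 and Pklr changed places between them. Khk was the most abundant member in each library, and Pfkfb1, Pfkl and Pkm took the lowest 3 places in that order in each of the 6.

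**Figure D2:**
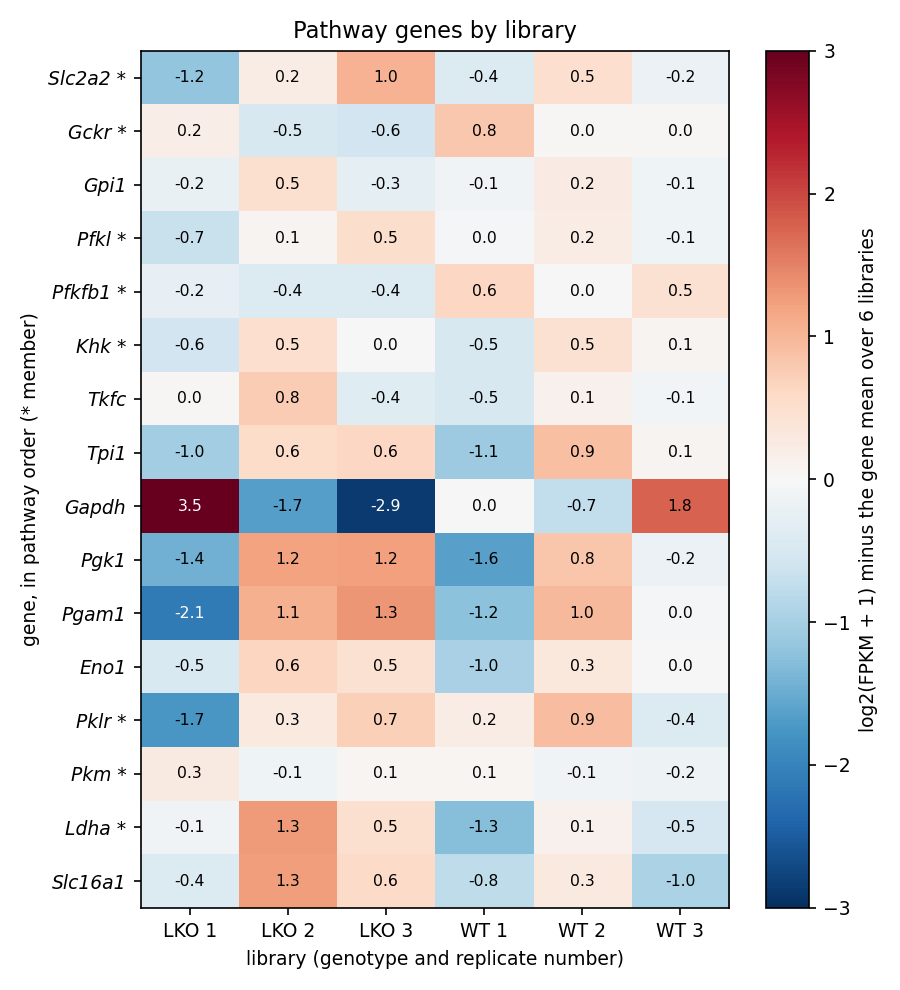
Colour and printed numbers give log2(FPKM + 1) minus the gene's mean over the 6 libraries, for genes down the page in pathway order (members marked with a star) and libraries across it. LKO replicate 1 and WT replicate 1 are low for Tpi1, Pgk1 and Pgam1, and Gapdh ranges from 3.5 in LKO replicate 1 to -2.9 in LKO replicate 3.

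Slc2a2 (ENSMUSG00000027690, chromosome 3, 28697903 to 28731359, plus strand; mm10 and GENCODE vM21 here and below) was at 19.1, 52.1 and 93.4 FPKM across LKO replicates 1 to 3, against 33.6, 63.3 and 39.1 FPKM across WT replicates 1 to 3. The lowest and the highest of the 6 libraries were both labelled LKO, with all WT libraries between them. The log2 difference was 0.06 ± 0.57 (SE; limma, 95% interval -1.28 to 1.40, adjusted p = 0.989). This interval, from 0.411-fold to 2.64-fold, spans differences of over 2-fold in both directions, and the value was 0.66 without LKO replicate 1 and -0.45 without LKO replicate 3.

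Gckr (ENSMUSG00000059434, chromosome 5, 31297443 to 31327314, plus strand) was at 48.8, 30.0 and 28.3 FPKM across LKO replicates 1 to 3, against 74.4, 43.4 and 43.2 FPKM across WT replicates 1 to 3. LKO replicates 2 and 3 lay below every WT library, while LKO replicate 1 lay between WT replicates 1 and 2. The log2 difference was -0.57 ± 0.36 (SE; limma, 95% interval -1.41 to 0.26, adjusted p = 0.700). It was -0.32 without WT replicate 1, the highest library.

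Pfkl (ENSMUSG00000020277, chromosome 10, 77986947 to 78010083, minus strand), which encodes the liver subunit of phosphofructokinase, the committed step of glycolysis, was at 1.88, 3.87 and 5.55 FPKM across LKO replicates 1 to 3, against 3.47, 4.29 and 3.18 FPKM across WT replicates 1 to 3. As for Slc2a2, the extremes at both ends were libraries labelled LKO. The log2 difference was -0.04 ± 0.33 (SE; limma, 95% interval -0.81 to 0.74, adjusted p = 0.989). It changed sign without LKO replicate 1 (0.29). Pfkm, the muscle-type subunit, was at 0.896, 1.38 and 4.29 FPKM across LKO replicates 1 to 3 and 2.02, 3.06 and 1.53 FPKM across WT replicates 1 to 3 (limma adjusted p = 0.957). The platelet-type Pfkp did not reach the filter, with 8 to 49 reads per library. Pfkl held 64.9%, 71.7% and 55.9% of the FPKM of the 3 subunit genes in LKO replicates 1 to 3 and 61.1%, 58.0% and 67.0% in WT replicates 1 to 3, so it was the most abundant subunit transcript in all 6 libraries (exact permutation test of the difference of 2.12 percentage points, two-sided, p = 0.8; with 3 libraries a group this test cannot give a p below 0.1, here and for the shares below). That difference was -1.63 points without LKO replicate 2.

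Pfkfb1 (ENSMUSG00000025271, chromosome X, 150588229 to 150643878, plus strand) encodes the liver form of the bifunctional enzyme that makes and removes fructose 2,6-bisphosphate, the activator of phosphofructokinase. It was at 8.33, 7.20 and 7.25 FPKM across LKO replicates 1 to 3, against 16.0, 9.81 and 14.1 FPKM across WT replicates 1 to 3. The libraries labelled LKO lay close together and each was below the lowest WT library, the only member for which the groups separated. The means were 7.59 ± 0.639 FPKM in LKO and 13.3 ± 3.16 FPKM in WT (SD, n = 3 each), and the log2 difference was -0.71 ± 0.26 (SE; limma, 95% interval -1.33 to -0.10, adjusted p = 0.466). It lay between -0.90 and -0.58 under the 15 alternatives. As the groups did not overlap, leaving out or reweighting libraries could not change its sign. It passed under 1 of the alternatives, array quality weights (limma adjusted p = 0.0424). With those weights 10.2% of all tested genes passed. The related Pfkfb3, an inducible form, was at 3.62, 6.40 and 9.04 FPKM across LKO replicates 1 to 3 and 1.65, 1.96 and 7.31 FPKM across WT replicates 1 to 3 (limma adjusted p = 0.699), and these groups overlapped.

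**Figure D3:**
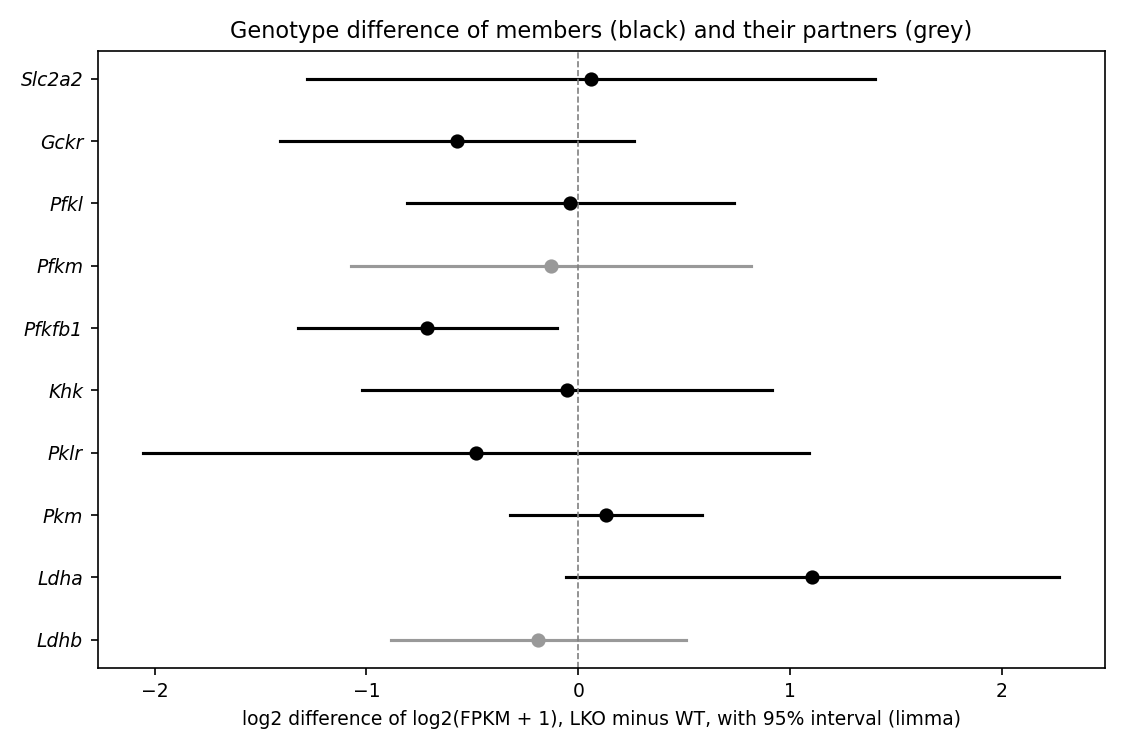
Log2 difference of log2(FPKM + 1), LKO minus WT, with its 95% interval from limma (horizontal axis) for the 8 members in black and the partner genes Pfkm and Ldhb in grey. The interval of Pfkfb1 lies below 0 and the others span it, that of Ldha from -0.06 to 2.27; none of these genes passed after adjustment over all tested genes.

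Khk (ENSMUSG00000029162, chromosome 5, 30921431 to 30931248, plus strand), for ketohexokinase, was at 189, 399 and 278 FPKM across LKO replicates 1 to 3, against 202, 387 and 299 FPKM across WT replicates 1 to 3. Both groups covered nearly the same range, with the libraries numbered 1 lowest and those numbered 2 highest in each. The log2 difference was -0.05 ± 0.41 (SE; limma, 95% interval -1.02 to 0.91, adjusted p = 0.986). The gene makes a liver-type and a widely expressed isoform by exclusive use of alternative exons, which a sum over the gene does not separate. Of 11 other genes of fructose and polyol metabolism 10 were tested, and 0 passed in either direction, with 6 above and 4 below 0 and a median of 0.20. Among the 10, Kyat1 encodes an aminotransferase and is not a gene of fructose breakdown. Slc2a5, the fructose transporter GLUT5, lay between 0.278 and 2.32 FPKM in LKO and between 0.869 and 3.98 FPKM in WT, and the intracellular sugar transporter gene Slc2a8 between 1.77 and 6.82 FPKM in LKO and between 4.35 and 6.997 FPKM in WT.

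Pklr (ENSMUSG00000041237, chromosome 3, 89136142 to 89146784, plus strand), the pyruvate kinase gene of liver and red cells, was at 11.9, 52.1 and 69.5 FPKM across LKO replicates 1 to 3, against 48.8, 80.5 and 31.4 FPKM across WT replicates 1 to 3. LKO replicate 1 stood below the other 5 libraries, which overlapped. The log2 difference was -0.48 ± 0.67 (SE; limma, 95% interval -2.05 to 1.09, adjusted p = 0.893). It was 0.27 without LKO replicate 1 and 0.25 without both libraries numbered 1, so its direction rested on that library. The gene also has a red-cell start site, and 7 erythroid markers summed to 91.2 to 149 FPKM in LKO and 139 to 330 FPKM in WT; their part in the level of Pklr was not tested. The 250 bases before the second of its 2 RefSeq starts (chr3:89136373-89136622, plus strand, GRCm38.p6) are shown because they hold the sequence for which this gene is known, a paired E-box-like element of the kind ChREBP binds, and because Pklr varied most between libraries. Capitals mark CACGGG and CCCGTG with 5 bases between them and, nearer the start, GGTTA and TAACC with 5 bases between them, an arrangement of the kind bound by HNF1.
Pklr: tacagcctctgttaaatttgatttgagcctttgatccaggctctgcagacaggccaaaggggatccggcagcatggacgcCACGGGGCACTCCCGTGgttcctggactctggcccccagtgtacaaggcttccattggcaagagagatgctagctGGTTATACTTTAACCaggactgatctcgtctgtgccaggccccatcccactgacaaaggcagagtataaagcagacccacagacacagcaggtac

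The first match runs from 170 to 154 bases before the start and the second from 95 to 81. Each motif reads the same on both strands, their letters were taken from this window, and 0.00304% and 0.0700% of 32851 RefSeq windows of 250 bases held them. Of the 14 windows of the 8 genes, no other held either motif. Mlxipl, which encodes ChREBP, was at 90.3, 30.5 and 31.5 FPKM across LKO replicates 1 to 3 and 97.0, 52.5 and 80.2 FPKM across WT replicates 1 to 3 (limma adjusted p = 0.730). LKO replicate 1 was second highest for Mlxipl and lowest for Pklr. The part of ChREBP in the level of Pklr was not tested.

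Pkm (ENSMUSG00000032294, chromosome 9, 59656368 to 59679375, plus strand), the pyruvate kinase gene of muscle and of most other cells, was at 1.26, 0.729 and 0.958 FPKM across LKO replicates 1 to 3, from 80, 57 and 91 reads. WT replicates 1 to 3 had 0.954, 0.762 and 0.691 FPKM, from 92, 67 and 54 reads. The groups overlapped at this low level (log2 difference 0.13 ± 0.19 SE, limma, 95% interval -0.32 to 0.59, adjusted p = 0.902). Pkm made up 9.57%, 1.38% and 1.36% of pyruvate kinase FPKM across LKO replicates 1 to 3 and 1.92%, 0.938% and 2.16% in WT replicates 1 to 3. Pklr was thus the main pyruvate kinase transcript of each library, and the high share in LKO replicate 1 went with its low Pklr. The difference of 2.43 percentage points (exact permutation test, two-sided, p = 0.8) was -0.3003 points without LKO replicate 1. The 2 splice forms of Pkm are not separated by a sum over the gene.

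Since hepatocytes hold little Pkm, markers of other liver cells were read beside it; in bulk tissue fewer cells of a type and less RNA per cell cannot be told apart. The 8 endothelial markers summed to 63.8, 22.8 and 25.5 FPKM across LKO replicates 1 to 3 and 56.4, 37.4 and 46.3 FPKM across WT replicates 1 to 3. The 9 macrophage markers summed to 55.5, 29.8 and 54.2 FPKM across LKO replicates 1 to 3 and 47.1, 43.1 and 20.6 FPKM across WT replicates 1 to 3. Pkm and both sums were highest in LKO replicate 1, and none of the 16 tested markers of these lists passed (8 of 8 endothelial below 0, and 7 of 8 macrophage above 0). The 7 B and plasma cell markers summed to 16.9, 10.6 and 8.71 FPKM across LKO replicates 1 to 3 and 66.8, 21.97 and 24.4 FPKM across WT replicates 1 to 3, so that these sums did not overlap. Of these markers 3 were tested and lay below 0, and none passed (Ighm, an immunoglobulin heavy chain gene, limma adjusted p = 0.201). Neutrophil and monocyte markers summed to 13.8, 10.99 and 3.06 FPKM across LKO replicates 1 to 3 and 2.69, 0.753 and 3.08 FPKM across WT replicates 1 to 3, with Ly6g at 0 throughout. The 7 biliary markers summed to 7.13 to 28.6 FPKM in LKO and 10.52 to 18.5 FPKM in WT, and the 8 stellate and fibroblast markers to 12.2 to 21.8 FPKM in LKO and 14.3 to 16.9 FPKM in WT. The part of these cells in the level of Pkm was not tested. Regulators of the choice between its splice forms include Hnrnpa1, Hnrnpa2b1 and Srsf3, which averaged 9.13, 36.1 and 6.92 FPKM in LKO and 7.01, 30.9 and 4.85 FPKM in WT. Of 7 such genes 5 were tested, 0 passed, and all 5 lay above 0, beside 54.1% of all tested genes. Rbm4 and Nek2, too low to be tested, lay the other way. They averaged 0.0948 and 0.163 FPKM in LKO and 0.234 and 0.280 FPKM in WT, with each LKO library below each WT library for Rbm4.

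Ldha (ENSMUSG00000063229, chromosome 7, 46841475 to 46855627, plus strand) was at 138, 359 and 206 FPKM across LKO replicates 1 to 3, against 60.1, 162 and 104 FPKM across WT replicates 1 to 3. LKO replicates 2 and 3 lay above every WT library, and LKO replicate 1 lay below WT replicate 2. The means were 235 ± 113 FPKM in LKO and 109 ± 50.8 FPKM in WT (SD, n = 3 each). The log2 difference was 1.11 ± 0.50 (SE; limma, 95% interval -0.06 to 2.27, adjusted p = 0.574), the largest of the 8 members in size. Its sign held under all 15 alternatives, between 0.74 without WT replicate 1 and 1.498 with array quality weights, under which it passed (limma adjusted p = 0.0360). So did 10.2% of all tested genes with those weights, against 0.0428% without them. The largest weight of each group was on LKO replicate 2 (2.42), the highest library for Ldha, and on WT replicate 3 (5.44). Ldha held 99.1% to 99.9% of lactate dehydrogenase FPKM in LKO and 99.1% to 99.5% in WT, with Ldhb at 7 to 25 reads in LKO and 14 to 35 in WT (exact permutation test of the share, two-sided, p = 0.4). That difference of 0.363 percentage points was 0.627 points without LKO replicate 1.

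**Figure D4:**
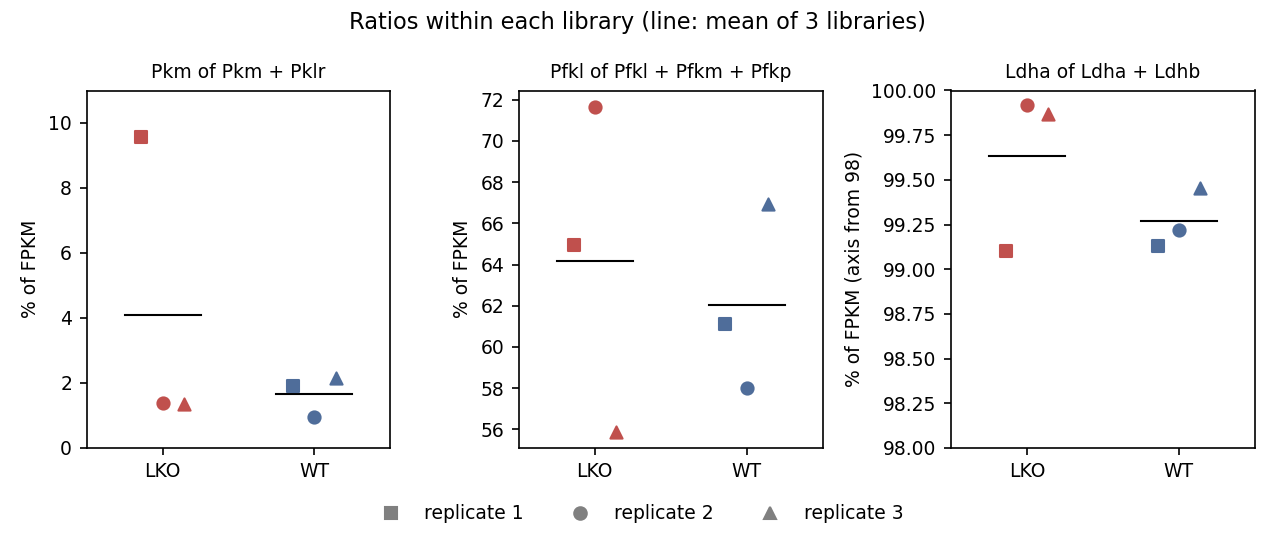
Share of Pkm in pyruvate kinase FPKM, of Pfkl in phosphofructokinase FPKM and of Ldha in lactate dehydrogenase FPKM, in percent within each library, for LKO and WT libraries with the mean as a line; the vertical axes of the phosphofructokinase and lactate dehydrogenase panels do not start at 0. The groups overlap in each panel, with LKO replicate 1 alone at 9.57% for Pkm.

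The 250 bases before the first of the 2 RefSeq starts of Ldha (chr7:46845554-46845803, plus strand, GRCm38.p6) are shown because this gene differed most between the genotypes. Ldha is a textbook target of hypoxia-inducible factors, whose sites contain ACGTG. Capitals mark CACGTG and any further match to ACGTG on either strand; each CACGTG also holds ACGTG on both strands.
Ldha: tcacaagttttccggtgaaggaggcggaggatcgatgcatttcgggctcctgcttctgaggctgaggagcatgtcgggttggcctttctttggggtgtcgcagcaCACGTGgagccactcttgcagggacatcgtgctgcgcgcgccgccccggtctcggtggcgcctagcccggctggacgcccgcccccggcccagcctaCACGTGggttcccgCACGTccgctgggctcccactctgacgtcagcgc

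CACGTG stood 145 to 140 and 48 to 43 bases before the start, and the further match 34 to 30 bases before it. CACGTG was in 2 of the 14 windows of the 8 genes (14.3%) and in 6.02% of all windows, and ACGTG in 3 of the 14 (21.4%) and in 16.6% of all windows. Khk was the other gene with CACGTG, at 71 to 66 bases before its start.

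Among hypoxia response genes 12 of 17 were tested, and 0 passed in either direction. Of these, 10 lay above 0 and 2 below, with a median of 0.44, which was 0.66 without LKO replicate 1 and 0.20 with array quality weights. In 2 of the 12, the oxygen-regulated factor subunit genes Epas1 and Hif1a, every LKO library lay above every WT library, which held for 8% of all tested genes. Epas1 was at 27.1, 53.3 and 35.3 FPKM across LKO replicates 1 to 3 and 16.2, 23.8 and 14.8 FPKM across WT replicates 1 to 3 (limma adjusted p = 0.425). Hif1a was at 5.14, 7.43 and 7.54 FPKM across LKO replicates 1 to 3 and 3.04, 4.88 and 2.99 FPKM across WT replicates 1 to 3 (limma adjusted p = 0.455). The prolyl hydroxylase gene Egln3 averaged 5.33 ± 3.80 FPKM in LKO and 2.55 ± 1.64 FPKM in WT (SD, n = 3 each), with overlapping groups. Other listed genes lay the other way and are named after their values were seen. Vegfa, the endothelial growth factor gene, was at 50.3, 23.8 and 25.6 FPKM across LKO replicates 1 to 3 and 40.6, 43.9 and 55.8 FPKM across WT replicates 1 to 3 (limma adjusted p = 0.721). Ankrd37 and P4ha2, too low to be tested, averaged 0.325 and 0.124 FPKM in LKO and 0.529 and 0.605 FPKM in WT, each LKO library below each WT library. The part of hypoxia-inducible factors in the level of Ldha was not tested.

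Of 16 other sugar and lactate transport genes 8 were tested, and 0 passed, with 5 above and 3 below 0 and a median of 0.46. Slc16a1, the monocarboxylate transporter MCT1 that carries lactate, was at 4.68, 17.1 and 10.3 FPKM across LKO replicates 1 to 3 and 3.41, 8.17 and 2.89 FPKM across WT replicates 1 to 3 (limma adjusted p = 0.628). Its partner Bsg, basigin, was at 169, 218 and 260 FPKM across LKO replicates 1 to 3 and 109, 159 and 162 FPKM across WT replicates 1 to 3 (limma adjusted p = 0.660), each LKO library above each WT library. Of the 8 tested genes 1 separated in this way and 0 the other way, where 8% and 7.42% of all tested genes did. A second lactate carrier, Slc16a7, averaged 6.95 ± 1.13 FPKM in LKO and 4.79 ± 1.15 FPKM in WT, and the insulin-responsive glucose transporter gene Slc2a4 averaged 3.37 ± 1.21 FPKM in LKO and 1.79 ± 1.17 FPKM in WT (SD, n = 3 each); both overlapped.

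Of 27 other glycolytic genes 19 were tested and 0 passed, with 11 above and 8 below 0 and a median of 0.01. Those named by p-value include Pfkfb3, given above, and Eno3 and Aldoc, minor isozymes of enolase and aldolase in liver. Eno3 averaged 3.51 ± 2.33 FPKM in LKO and 5.51 ± 2.51 FPKM in WT, and Aldoc 4.14 ± 2.39 FPKM in LKO and 2.40 ± 0.227 FPKM in WT (SD, n = 3 each). Of 10 pentose phosphate genes 9 were tested and 0 passed, with 5 above and 4 below 0. H6pd, the enzyme of the first steps of this route in the endoplasmic reticulum, was at 87.5, 136 and 85.1 FPKM across LKO replicates 1 to 3 and 33.2, 61.3 and 41.6 FPKM across WT replicates 1 to 3 (log2 difference 1.17 ± 0.35 SE, limma adjusted p = 0.358), with no overlap. Shpk, sedoheptulokinase, lay the other way at 7.86, 12.6 and 18.9 FPKM across LKO replicates 1 to 3 and 27.3, 22.1 and 19.5 FPKM across WT replicates 1 to 3 (limma adjusted p = 0.532). Of the 9 tested genes 1 had every LKO library above every WT library and 1 had each below, where 8% and 7.42% of all tested genes did.

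Of the genes that respond to sugar through ChREBP all 16 listed were tested, 0 passed, and 7 lay above and 9 below 0, with a median of -0.07. Gpd1, glycerol-3-phosphate dehydrogenase, which links glycolysis to triglyceride synthesis, was at 111, 167 and 122.8 FPKM across LKO replicates 1 to 3 and 30.2, 57.1 and 41.9 FPKM across WT replicates 1 to 3 (log2 difference 1.64 ± 0.34 SE, limma adjusted p = 0.201). G6pc, glucose-6-phosphatase, which releases free glucose, was at 313, 198 and 388 FPKM across LKO replicates 1 to 3 and 135, 155 and 177 FPKM across WT replicates 1 to 3 (limma adjusted p = 0.497). For these 2 of the 16 every LKO library lay above every WT library, which held for 8% of all tested genes. Fgf21 and Mid1ip1 overlapped, at means of 0.918 ± 0.586 and 10.7 ± 11.9 FPKM in LKO and 1.99 ± 1.43 and 15.0 ± 3.004 FPKM in WT. Of 17 regulators of sugar and insulin sensing 16 were tested and 0 passed, 9 above and 7 below 0. The insulin receptor substrate gene Irs2 averaged 4.47 ± 0.375 FPKM in LKO and 2.81 ± 0.578 FPKM in WT, and the hepatocyte factor gene Hnf4a 147 ± 41.4 FPKM in LKO and 99.2 ± 3.96 FPKM in WT (SD, n = 3 each). For both genes every LKO library lay above every WT library (limma adjusted p = 0.526 for Irs2 and 0.695 for Hnf4a). That held for 2 of the 16 regulators and 8% of all tested genes. For 1 of the 16 every LKO library lay below every WT library, as for 7.42% of all tested genes.

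The genes whose levels followed those of the 3 members with the largest differences most closely were sought among the 4384 candidates whose mean reached 5 FPKM, by the root mean square distance between centred log2(FPKM + 1) values over the 6 libraries. For Ldha these were Eif6 (distance 0.09), a ribosome assembly factor, and Dnajb9 (0.19), a chaperone of the endoplasmic reticulum. Eif6 was at 12.8, 37.1 and 19.5 FPKM across LKO replicates 1 to 3 and 6.22, 16.1 and 10.2 FPKM across WT replicates 1 to 3. Its likeness to Ldha follows from its choice by distance and is not a separate result. Pfkfb1 was followed by Dnajc4 (0.11) and the retinol dehydrogenase gene Rdh5 (0.11), and Gckr by Dvl1 (0.07), a Wnt pathway component, and Tlcd1 (0.13).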

How the data were processed

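RNA of 6 mouse liver samples, 3 labelled LKO and 3 WT, was prepared with a NEBNext Ultra kit from 1 μg of total RNA, per the labels' protocols. Per the submitters' processing notes the build was mm10 and the software included featureCounts 1.5.0-p3, HISAT2 2.0.5, CASAVA and DESeq2 1.20.0, without a stated role. The sources used here name no annotation, strandedness or filter. The authors deposited FPKM, 1 table per library. The unit was read from the values: multiplied by merged exon length (GENCODE vM21, which held 54495 identifiers), 96.0% to 96.4% of values above 0 were whole reads within 0.05. The library totals implied by these steps stood at 0.983 to 0.992 of those from median-of-ratios size factors, so the values may already be scaled between libraries. These totals did not follow the recovered reads. WT replicate 1 had a total of 1.93e+07 and 16889735 reads, and LKO replicate 1 had 1.27e+07 and 13947791.

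The test was limma-trend (limma 3.58.1, R 4.3.3, robust empirical Bayes) on log2(FPKM + 1), which understates changes of low genes, over the genes whose mean reached 0.5 FPKM, with Benjamini-Hochberg adjustment over all of them and a threshold of 0.05. It was tried on simulated reads with the same spread for every gene and no outlying library. That trial does not show how the test performs on libraries that spread as these did. Within-library ratios were tested by exact permutation (SciPy 1.17.1), which cannot give a p below 0.1 here. The 8 members and all gene lists were chosen with earlier results of these data known, and lists are described by counts and medians without a set test. Named were the members, their partner genes, up to 4 genes with the smallest p of each list (mean of at least 1 FPKM), and the nearest profiles; some genes that this rule names are not reported here. Alternatives were a pseudocount of 0.1, other filters, libraries left out, other scalings, voom on recovered reads, array quality weights and the replicate number as a block. Promoter sequences are from RefSeq (GRCm38.p6), which held 14 windows for the 8 genes. Reads of glycolytic genes with processed pseudogenes, such as Gapdh, Ldha, Pkm, Aldoa and Pgk1, may be shared with these copies, and their levels are uncertain to that extent. A count of 3 reads on 1 kb of exon corresponds to 0.156 to 0.236 FPKM; this floor covers counting error only. Tables and plots used matplotlib 3.10.9, pandas 2.3.3 and Python 3.11.15.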

Additional observations from a re-analysis of the deposited data

How the results depend on the processing

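None of the 8 genes passed under any alternative except array quality weights, where 2 did. Over all genes 1 was higher and 4 were lower; the counts were 0 and 1 without a filter, 0 and 0 with the replicate block, 0 higher with quantile normalization, 1 lower without both libraries numbered 1, 621 and 574 with array quality weights, and 0 to 13 higher and 0 to 4 lower with 1 library left out. Library weights ran from 0.299 (LKO replicate 1) to 5.44 (WT replicate 3), and their estimation stopped short of its convergence tolerance. Log2 differences changed sign with library totals (Slc2a2 -0.0525), quantile normalization (Slc2a2 -0.0723), array quality weights (Pfkl 0.15, Khk 0.23, Pklr 0.32) and without both libraries numbered 1 (Pfkl 0.26, Pklr 0.25, Pfkm 0.14). With 1 library left out they spanned -0.45 to 0.66 for Slc2a2, -0.31 to 0.29 for Pfkl, -0.32 to 0.22 for Khk, -0.96 to 0.27 for Pklr, -0.19 to 0.12 for Arid2, -0.57 to 0.17 for Pfkm, -2.60 to 0.58 for Gapdh, -0.723 to 0.0270 for Slc2a8 and -0.0704 to 0.87 for Kyat1. The causes were not tested. In the same settings the Pkm share differed by -0.3003 to 3.81 percentage points (-0.177 without both libraries numbered 1), the Pfkl share by -1.63 to 6.25 and the Ldha share by 0.218 to 0.627.

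The replicate numbers were not shown to pair the libraries: deviations from the group means correlated at 0.494, 0.303 and -0.0234 across genes for numbers 1, 2 and 3. Between unlike numbers the correlations ran from -0.58 (LKO replicate 1 with WT replicate 2) to 0.447 (LKO replicate 3 with WT replicate 2). Whether libraries of the same number shared a batch was not tested. The replicate block gave limma adjusted p = 0.233 for Ldha, 0.390 for Gckr and 0.324 for Pfkfb1; in the exact sign-flip test within numbers p was 0.75 for the Pkm and Pfkl shares and 0.5 for the Ldha share, where 0.25 is the smallest p possible, so neither this test nor the permutation test could pass. With 3 libraries a group and this spread, limits of the members' intervals reach from 0.241-fold (Pklr) to 4.83-fold (Ldha), so differences of 2-fold could go undetected.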

Other observations

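Gapdh, widely used as a level reference, varied more than any member between libraries. It was at 142, 3.03 and 0.739 FPKM across LKO replicates 1 to 3 (7437, 196 and 58 reads) and at 11.6, 6.57 and 42.6 FPKM across WT replicates 1 to 3 (925, 478 and 2750 reads). Aldoa, an aldolase gene of the preceding step, was at 74.8, 65.7 and 24.5 FPKM across LKO replicates 1 to 3 and 40.7, 41.8 and 36.7 FPKM across WT replicates 1 to 3, highest and lowest in the same libraries as Gapdh. Pgk1, Pgam1 and Tpi1 were low in LKO replicate 1 and high in LKO replicate 3. Pgk1, phosphoglycerate kinase, was at 18.9, 124 and 126 FPKM across LKO replicates 1 to 3 and 16.6, 95.8 and 47.1 FPKM across WT replicates 1 to 3. Pgam1, phosphoglycerate mutase, was at 5.16, 55.3 and 66.3 FPKM across LKO replicates 1 to 3 and 10.3, 51.8 and 25.2 FPKM across WT replicates 1 to 3. Tpi1, triosephosphate isomerase, was at 33.1, 102 and 107 FPKM across LKO replicates 1 to 3 and 31.9, 130 and 73.4 FPKM across WT replicates 1 to 3. Both libraries numbered 1 were lowest for Tpi1, Pgk1 and Pgam1. The genes were chosen after their values were seen, and no cause was tested.

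Kyat1, an aminotransferase gene that stood on the fructose list without being part of that pathway, was at 212, 74.2 and 56.9 FPKM across LKO replicates 1 to 3 and 102, 49.96 and 62.3 FPKM across WT replicates 1 to 3, highest in both libraries numbered 1. Its log2 difference of 0.49 was -0.0704 without LKO replicate 1.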
